A study of Mus musculus with 15 samples.

Results

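Claudins are the membrane proteins that form the strands of tight junctions, and the 10 described here are Cldn1, Cldn2, Cldn3, Cldn4, Cldn5, Cldn7, Cldn8, Cldn12, Cldn14 and Cldn19. They were chosen by name, and their probes were matched to symbols through the RefSeq accession printed beside each probe on the array. They are 10 of the 20145 named genes on the array, which also carries 13 other claudins. RNA was measured on 15 one-colour microarrays, 1 per tissue sample, from female FVB/N mice. Hosts of a transplant had first been given monocrotaline, a plant alkaloid toxic to liver endothelium and hepatocytes, in 2 doses of 70 mg/kg set 2 weeks apart. A further 2 weeks later they received 1000000 hepatocytes under the kidney capsule, from donors aged 8 to 20 weeks that carried the human alpha-1 antitrypsin transgene hA1AT. Tissue was taken at 250 to 300 days, when hosts were 48 to 55 weeks old, in 3 groups of 4 samples: the kidney (host kidney), the injured liver in its normal place (host liver) and the liver tissue grown beneath the capsule (neo-liver). The last group, control liver, came from 3 normal mice aged 20 weeks, so age, monocrotaline and transplantation cannot be told apart in a comparison with it. Nothing in the sources used here says that samples of 1 group were separate cultures or pools, and p-values measure the spread between these samples.

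A claudin chain crosses the membrane several times and meets chains of the neighbouring cell with its extracellular loops, and the set of claudins in a strand decides which ions pass between cells. Some claudins seal, and others, such as Cldn2, form pores. In liver, tight junctions between hepatocytes close the bile canaliculus off from blood. In kidney, the claudin set changes along the nephron: leaky junctions with Cldn2 and Cldn10 in the proximal tubule, Cldn16 and Cldn19 in the thick ascending limb, and tight junctions with Cldn4, Cldn7 and Cldn8 in the distal nephron and collecting duct. Cldn5 is the main claudin of endothelial cells.

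Levels are given as the log2 of the background-subtracted signal minus the array's own 75th percentile, so 0 is the signal that 75% of probes do not reach. They can be compared between groups for 1 gene, but not between genes, since probes differ in brightness. Differences are first group minus second on this log2 scale, with their standard error from the limma fit over 15617 genes, and a gene was called at a limma adjusted p under 0.05. Across arrays the 75th percentile ran from 287 to 874 signal units and 46.4% to 67.6% of probes were well above background, with no saturated spot. Neo-liver and control liver arrays shared 1 slide, so that comparison is within a slide. All host kidney arrays sat together on another slide, and host liver arrays were alone on 2 further slides, so group and slide cannot be told apart for host kidney, and every comparison with host liver is also one between slides. All 11 hepatocyte markers on a list of that cell type were above background on every neo-liver array. Their summed signal was 4640 to 6990 times the 75th percentile in neo-liver, 7970 to 11500 in host liver, 7530 to 8070 in control liver and 13.9 to 16.5 in host kidney. Neo-liver arrays also gave signal for kidney epithelium. Over 44 such markers, the median signal above control liver was 18.1%, 44.9%, 20.9% and 29.9% of the host kidney mean on neo-liver arrays 1 to 4, and 0.0112% to 0.0563% on host liver arrays. These shares are given beside each result that they accompany. In whole tissue, fewer cells of a type and less RNA per cell cannot be told apart.

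Between neo-liver and host kidney 9 of the 10 claudins were called, where 52.7% of all genes were. In neo-liver, Cldn1, Cldn3 and Cldn14 (3 of 10) were higher, as were 23.2% of all genes, and 6 were lower, as were 29.5%. Against control liver 8 of 10 were called, where 50.2% of all genes were: 5 were higher in neo-liver (Cldn2, Cldn4, Cldn7, Cldn8 and Cldn19) beside 20.4% of all genes, and 3 were lower (Cldn5, Cldn12 and Cldn14) beside 29.8%. Against host liver 9 of 10 were called, where 48.6% of all genes were: 5 were higher beside 17.1% of all genes and 4 were lower beside 31.5%. The 5 that were higher in neo-liver than in control liver were also those higher than in host liver, and they are also 5 of the 6 that were lower than in host kidney. These comparisons share the neo-liver arrays. Cldn8 and Cldn19 were kept for testing through host kidney and neo-liver alone. They therefore had to differ from both livers, and those calls give no support to the counts. The median difference of the 10 was -0.77 against host kidney, 0.54 against control liver and 0.35 against host liver, while the median over all genes was -0.09, -0.16 and -0.21. Quantile normalization moved the last 2 of these medians over all genes to -0.02 and -0.07. It also raised the part of all calls that were higher from 40.6% to 52.2% against control liver and from 35.2% to 50.8% against host liver. Median centring moved the median over all genes against host liver to -0.41 and lowered that part to 23.1%, and normexp background correction lowered it to 24.7%.

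**Figure D1:**
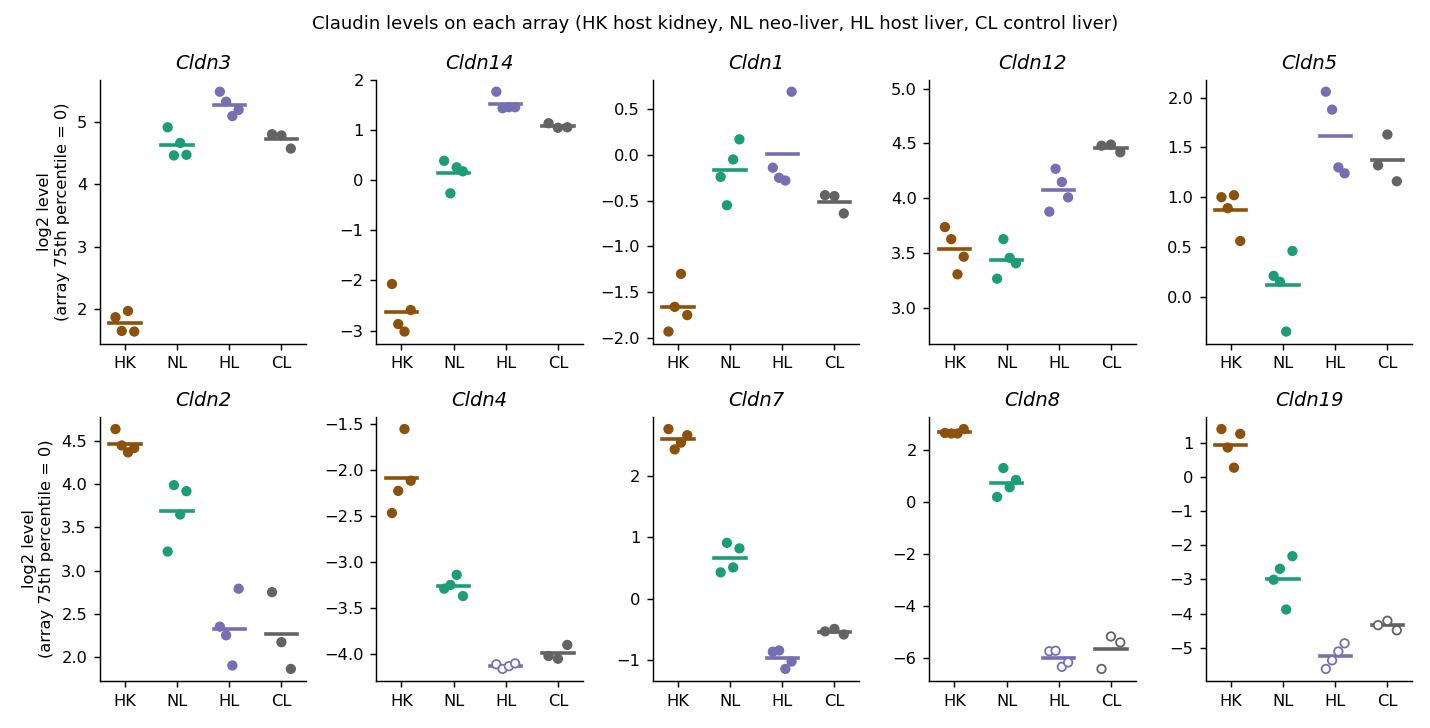
Level of each claudin on each of the 15 arrays, as log2 signal minus the 75th percentile of the array, with 1 point per array and a bar at the group mean. HK is host kidney, NL neo-liver, HL host liver and CL control liver. Open points are not well above background. In the upper row Cldn3, Cldn14 and Cldn1 are lowest in host kidney and Cldn5 is lowest in neo-liver. In the lower row the neo-liver points of all 5 claudins lie between those of host kidney and those of both livers.

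Cldn3, a sealing claudin found in hepatocytes and bile duct cells, overlapped control liver in neo-liver and stood far above host kidney. Its neighbour on the chromosome, Cldn4, a sealing claudin of the distal nephron and collecting duct, had the opposite order of organs. The RefSeq table (GRCm38.p6) lists no gene between the pair. The 250 bases before the start of each are shown because the genes are neighbours whose levels ran opposite ways between liver and kidney. They are read on the strand of the gene, with capitals for motif matches.
Cldn3, chr5:134985964-134986213, plus strand: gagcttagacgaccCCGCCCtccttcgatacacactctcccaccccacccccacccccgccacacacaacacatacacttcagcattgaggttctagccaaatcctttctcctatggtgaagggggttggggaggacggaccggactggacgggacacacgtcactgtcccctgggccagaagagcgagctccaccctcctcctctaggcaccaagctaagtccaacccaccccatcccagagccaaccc
Cldn4, chr5:134946935-134947184, minus strand: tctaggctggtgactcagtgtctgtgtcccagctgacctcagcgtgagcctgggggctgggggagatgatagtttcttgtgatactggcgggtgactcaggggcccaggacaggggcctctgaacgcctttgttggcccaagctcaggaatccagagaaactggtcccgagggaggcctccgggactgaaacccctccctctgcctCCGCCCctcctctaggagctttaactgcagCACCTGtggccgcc
Capitals in both mark the GC box GGGCGG, here as CCGCCC on the opposite strand, and in Cldn4 also the E-box CACCTG, a sequence that Snail factors can bind. Both strands of 32851 RefSeq windows of this length were searched, and 32.7% held a GC box and 17.2% this E-box. Neither window held AACCNGTT, the letters for grainyhead-like factors (1.79% of windows), the HNF1 motif (0.371%), CAAAGTCCA for HNF4 (0.384%) or TATAAA (12.4%). A match describes the letters only.

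The level of Cldn3 was 4.91, 4.46, 4.66 and 4.47 on neo-liver arrays 1 to 4. It was 4.80, 4.78 and 4.57 in control liver, 5.48, 5.32, 5.09 and 5.19 in host liver, and 1.87, 1.65, 1.97 and 1.64 in host kidney. Neo-liver and control liver overlapped, host liver lay above both, and host kidney lay below all. Cldn3 was 7.17-fold higher in neo-liver than in host kidney (difference 2.84 ± 0.13 SE, n = 4 and 4, limma adjusted p = 5.98e-10). The difference from control liver was -0.09 ± 0.14, with a 95% interval of -0.40 to 0.21 and a limma adjusted p of 0.603. Cldn3 was 1.57-fold lower in neo-liver than in host liver (difference -0.65 ± 0.13, limma adjusted p = 0.00131), but with quantile normalization this became -0.23 with an adjusted p of 0.204. From the highest group to the lowest, the order was host liver, control liver, neo-liver and host kidney, and control liver and neo-liver did not differ beyond their spread.

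Cldn14, which in kidney is known to limit calcium uptake through Cldn16 in the thick ascending limb and is also made by hepatocytes, was higher in liver than in kidney and lay below both livers in neo-liver. Its levels were 0.39, -0.26, 0.26 and 0.18 in neo-liver, 1.14, 1.05 and 1.06 in control liver, 1.77, 1.44, 1.46 and 1.46 in host liver, and -2.07, -2.87, -3.02 and -2.59 in host kidney. No 2 groups overlapped. Neo-liver exceeded host kidney 6.87-fold (2.78 ± 0.19, limma adjusted p = 4.70e-08). It was 1.92-fold below control liver (-0.94 ± 0.21, limma adjusted p = 0.00198) and 2.62-fold below host liver (-1.39 ± 0.19, limma adjusted p = 7.40e-05). Host liver lay above control liver on every array, but that difference of 0.45 ± 0.21 had a limma adjusted p of 0.13. Of the 11 hepatocyte markers, 5 were lower and 0 higher in neo-liver than in control liver, and 7 were lower and 0 higher than in host liver. Over all genes, 29.8% were lower and 20.4% higher than in control liver, and 31.5% and 17.1% than in host liver. Their part in the lower Cldn14 was not tested.

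Cldn1, a widely made sealing claudin without which the skin barrier fails, was also higher in liver than in kidney. Its levels were -0.24, -0.55, -0.05 and 0.17 in neo-liver, -0.44, -0.45 and -0.64 in control liver, -0.14, -0.25, -0.28 and 0.69 in host liver, and -1.93, -1.66, -1.30 and -1.75 in host kidney. The 4 kidney arrays lay below the 11 liver and neo-liver arrays, and the neo-liver arrays overlapped both livers. Cldn1 was 2.81-fold higher in neo-liver than in host kidney (1.49 ± 0.22, limma adjusted p = 7.50e-05). Its difference from control liver was 0.34 ± 0.24 (95% interval -0.17 to 0.85, limma adjusted p = 0.243) and from host liver -0.17 ± 0.22 (-0.64 to 0.30, limma adjusted p = 0.541). The order was host liver, neo-liver, control liver and host kidney, and no neighbours among the first 3 differed beyond their spread.

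Cldn12, an unusual claudin that lacks the C-terminal motif by which others bind scaffold proteins, overlapped the kidney level in neo-liver and lay below both livers. It measured 3.27, 3.63, 3.46 and 3.41 in neo-liver and 3.74, 3.63, 3.31 and 3.47 in host kidney. In host liver it measured 3.88, 4.27, 4.15 and 4.01, and in control liver 4.48, 4.49 and 4.42. Neo-liver overlapped host kidney and lay wholly below both livers. The neo-liver level was 2.03-fold below control liver (-1.02 ± 0.13, limma adjusted p = 3.04e-05) and 1.55-fold below host liver (-0.63 ± 0.12, limma adjusted p = 0.000876). Against host kidney the difference was -0.09 ± 0.12 (95% interval -0.35 to 0.17, limma adjusted p = 0.541).

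Cldn5, which seals junctions between endothelial cells and is best known from the blood-brain barrier, was the only member lower in neo-liver than in all 3 other groups. Its promoter is shown as the one member window among those searched that held the grainyhead-like letters.
Cldn5, chr16:18776597-18776846, plus strand: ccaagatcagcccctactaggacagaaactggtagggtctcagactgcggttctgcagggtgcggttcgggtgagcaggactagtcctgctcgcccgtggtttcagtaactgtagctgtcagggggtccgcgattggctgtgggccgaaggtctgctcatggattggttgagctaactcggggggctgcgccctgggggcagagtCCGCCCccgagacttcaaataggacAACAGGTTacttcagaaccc
Capitals mark CCGCCC, the GC box on the opposite strand, and AACAGGTT, a match to AACCNGTT on the opposite strand, at 20 to 13 bases before the start.

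Neo-liver levels of Cldn5 were 0.21, 0.15, -0.35 and 0.46, against 1.00, 0.89, 1.02 and 0.56 in host kidney, 2.06, 1.88, 1.30 and 1.24 in host liver and 1.32, 1.63 and 1.16 in control liver. Every neo-liver array lay below every array of the other groups. The level was 1.69-fold below host kidney (-0.75 ± 0.21, limma adjusted p = 0.00951), 2.39-fold below control liver (-1.26 ± 0.23, limma adjusted p = 0.000588) and 2.84-fold below host liver (-1.50 ± 0.21, limma adjusted p = 0.000102). Each of the 3 calls held in all 27 alternatives (1 of them, taking off the kidney share, lowers genes in general), with adjusted p from 0.000245 to 0.0335 against host kidney, 0.000104 to 0.00457 against control liver and 1.85e-05 to 0.00298 against host liver. The order of the other groups was host liver, control liver and host kidney, and host liver and control liver overlapped (0.25 ± 0.23, limma adjusted p = 0.467).

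Calls among general endothelial genes went in both directions, as they did among all genes. In neo-liver, 20.4% of all genes were higher and 29.8% lower than in control liver, and 17.1% and 31.5% than in host liver. Against host kidney these shares were 23.2% and 29.5%. Of 16 genes on a list of endothelial markers, 4 were higher in neo-liver than in control liver and 1 was lower, 2 were higher and 1 lower than in host liver, and 4 were higher and 6 lower than in host kidney. All 16 were above background on every array. Their summed signal was 92.3 to 127 times the 75th percentile in neo-liver, 90.7 to 104 in host kidney, 91.2 to 93.9 in control liver and 104 to 153 in host liver. Ptprb, an endothelial phosphatase, was the member of the list lower in neo-liver than in both livers, by -0.58 and -0.79, and it was higher than in host kidney by 1.26. Emcn, endomucin, differed by 2.11 from control liver and by -1.47 from host kidney, and Cd34, a sialomucin of capillary endothelium, by 2.10 and -0.68. Plvap, which forms the diaphragms of fenestrae, was higher than in control liver by 1.06. Against host kidney Vwf, the clotting factor of larger vessels, was higher by 2.25, and Sox17 (-1.15) and Esam (-0.72) were lower. Among 11 tested markers of sinusoidal endothelium, the fenestrated lining of liver vessels, 5 were lower and 1 higher in neo-liver than in control liver, and 7 were lower and 1 higher than in host liver. In the sinusoidal list, Stab2, a scavenger receptor, differed by -1.25 from control liver, Dnase1l3 by -1.23, Gpr182 by -1.14 and Lyve1, a hyaluronan receptor, by 1.98. The part of these changes in the lower Cldn5 was not tested.

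**Figure D2:**
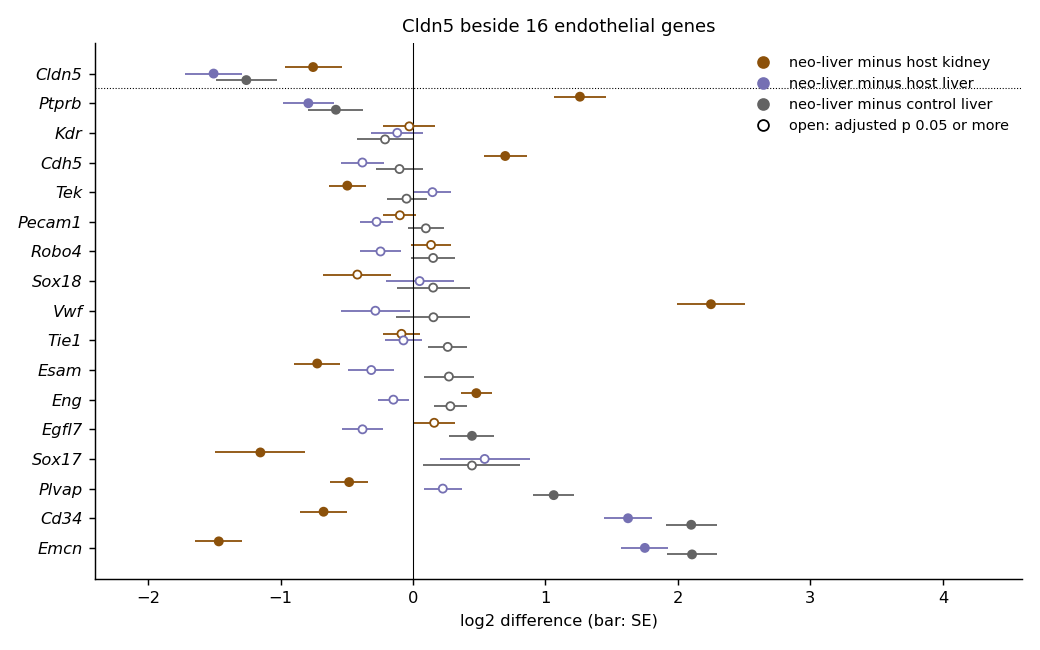
Difference of Cldn5 (top) and of 16 endothelial genes between neo-liver and each of the 3 other groups, on the log2 scale with bars of 1 SE, ordered by the difference from control liver. Filled points have a limma adjusted p under 0.05. Cldn5 is left of 0 with filled points in all 3 comparisons, at -0.75, -1.50 and -1.26. Against control liver 4 of the 16 genes were higher, among them Emcn, Cd34 and Plvap, 1 was lower and 11 were not called.

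Cldn2, the cation and water pore of the proximal tubule, which in liver is made mostly by hepatocytes near the central vein, was intermediate in neo-liver. Its promoter is shown because it was the only member window with the letters TATAAA.
Cldn2, chrX:139800558-139800807, plus strand: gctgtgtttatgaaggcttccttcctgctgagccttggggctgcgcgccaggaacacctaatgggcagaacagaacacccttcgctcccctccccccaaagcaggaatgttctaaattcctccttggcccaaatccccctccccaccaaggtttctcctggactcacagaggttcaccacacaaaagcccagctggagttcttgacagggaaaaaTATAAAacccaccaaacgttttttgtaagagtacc
Capitals mark TATAAA at 35 to 30 bases before the start, on the strand of the gene.

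Cldn2 measured 3.22, 3.99, 3.65 and 3.92 in neo-liver, 4.64, 4.45, 4.37 and 4.42 in host kidney, 2.35, 2.25, 1.90 and 2.79 in host liver, and 2.75, 2.17 and 1.86 in control liver. The neo-liver arrays lay below all kidney arrays and above all liver arrays, and the 2 livers overlapped. The level was 2.71-fold above control liver (1.44 ± 0.24, limma adjusted p = 0.000296), 2.58-fold above host liver (1.37 ± 0.22, limma adjusted p = 0.000301) and 1.71-fold below host kidney (-0.78 ± 0.22, limma adjusted p = 0.0103). A second Cldn2 probe gave the same directions, at 1.83 ± 0.27, 1.37 ± 0.25 and -0.64 ± 0.25. With the kidney share taken off each neo-liver array, the differences from control liver and host liver became 0.50 (adjusted p = 0.086) and 0.43 (adjusted p = 0.104). That setting was not rescaled and lowered genes in general, with a median over all genes of -0.72 and -0.79 in these comparisons against -0.16 and -0.21 before. Of 14 markers of hepatocytes near the central vein, 4 were lower and 1 was higher than in control liver, beside 29.8% and 20.4% of all genes. Sp5, a target of Wnt signalling, was higher by 1.38, and Slc1a2, a glutamate transporter (-2.22), Oat, ornithine aminotransferase (-2.14), and Cyp2e1, a cytochrome of drug metabolism (-1.12), were lower. Glul, the enzyme that fixes ammonia beside the central vein, differed by -0.23 (limma adjusted p = 0.593).

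Cldn8, a claudin of the distal nephron and collecting duct that brings Cldn4 into the junction, was bright in host kidney and not well above background in either liver. It measured 2.67, 2.65, 2.65 and 2.82 in host kidney and 0.21, 1.32, 0.58 and 0.86 in neo-liver. In host liver the readings were -5.73, -5.71, -6.33 and -6.16 and in control liver -6.41, -5.16 and -5.39, all not well above background. Neo-liver was 3.87-fold below host kidney (-1.95 ± 0.27, limma adjusted p = 4.86e-05). It was at least 34.3-fold above control liver (limma adjusted p = 2.10e-09) and at least 26.3-fold above host liver (limma adjusted p = 5.79e-10). Such a bound sets the bright group against the lowest signal called above background on the arrays of the dim group, or the probe's own where that is higher. The limma adjusted p printed with a bound belongs to the fitted difference, not to the bound. Host kidney was at least 133-fold above control liver and at least 102-fold above host liver.

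Cldn7, a claudin of the distal nephron and of many simple epithelia, gave signal above background on all 15 arrays. One of its RefSeq windows is shown because it held the E-box CACCTG on both strands.
Cldn7, chr11:69965171-69965420, plus strand: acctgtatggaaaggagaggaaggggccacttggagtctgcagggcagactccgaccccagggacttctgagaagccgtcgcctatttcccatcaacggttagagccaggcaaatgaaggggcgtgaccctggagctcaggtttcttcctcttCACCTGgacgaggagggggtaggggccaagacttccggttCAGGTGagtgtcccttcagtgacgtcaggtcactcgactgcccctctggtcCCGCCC
Capitals mark CACCTG on the strand of the gene at 97 to 92 bases before the start, CAGGTG (the opposite strand) at 57 to 52, and CCGCCC, a GC box on the opposite strand, at 6 to 1. The levels of Cldn7 were 2.76, 2.43, 2.54 and 2.66 in host kidney, 0.43, 0.91, 0.51 and 0.82 in neo-liver, -0.53, -0.49 and -0.58 in control liver, and -0.86, -0.84, -1.14 and -1.02 in host liver. No 2 groups overlapped, and neo-liver stood between kidney and liver on every array. The neo-liver level was 3.82-fold below host kidney (-1.93 ± 0.12, limma adjusted p = 2.39e-08), 2.30-fold above control liver (1.20 ± 0.13, limma adjusted p = 9.90e-06) and 3.10-fold above host liver (1.63 ± 0.12, limma adjusted p = 3.25e-07). With the kidney share taken off, Cldn7 fell to the detection floor on 2 of 4 neo-liver arrays, so no size or direction is read from that setting.

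Cldn4 was dim. Its brighter probe read -2.47, -2.23, -1.56 and -2.12 in host kidney, -3.29, -3.25, -3.14 and -3.37 in neo-liver, -4.02, -4.05 and -3.90 in control liver, and -4.11, -4.16, -4.13 and -4.10 in host liver, where 0 of 4 arrays were above background. The groups did not overlap. Neo-liver was 2.25-fold below host kidney (-1.17 ± 0.15, limma adjusted p = 2.61e-05), 1.66-fold above control liver (0.73 ± 0.16, limma adjusted p = 0.00242) and at least 1.60-fold above host liver (limma adjusted p = 0.000503). With normexp background correction the differences from the livers were 0.08 (adjusted p = 0.611) and 0.01 (adjusted p = 0.959). A second probe read lower in neo-liver than in host kidney by -2.13 ± 0.32. It was above background on 3 of 4 neo-liver arrays and on 0 of 7 liver arrays.

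Cldn19, which pairs with Cldn16 in the thick ascending limb to let magnesium and calcium through, had the largest difference between neo-liver and host kidney among the 10. It measured 1.40, 0.86, 0.27 and 1.26 in host kidney and -3.01, -2.69, -3.88 and -2.32 in neo-liver. The host liver readings of -5.62, -5.37, -5.11 and -4.87 and the control liver readings of -4.34, -4.21 and -4.49 were not well above background. Neo-liver lay below every kidney array and above every liver array. It was 15.2-fold below host kidney (-3.92 ± 0.31, limma adjusted p = 2.26e-07), at least 2.49-fold above control liver (limma adjusted p = 0.00421) and at least 1.99-fold above host liver (limma adjusted p = 7.42e-05). With normexp background correction the fitted differences from the livers were 0.25 (adjusted p = 0.355) and 0.24 (adjusted p = 0.336).

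**Figure D3:**
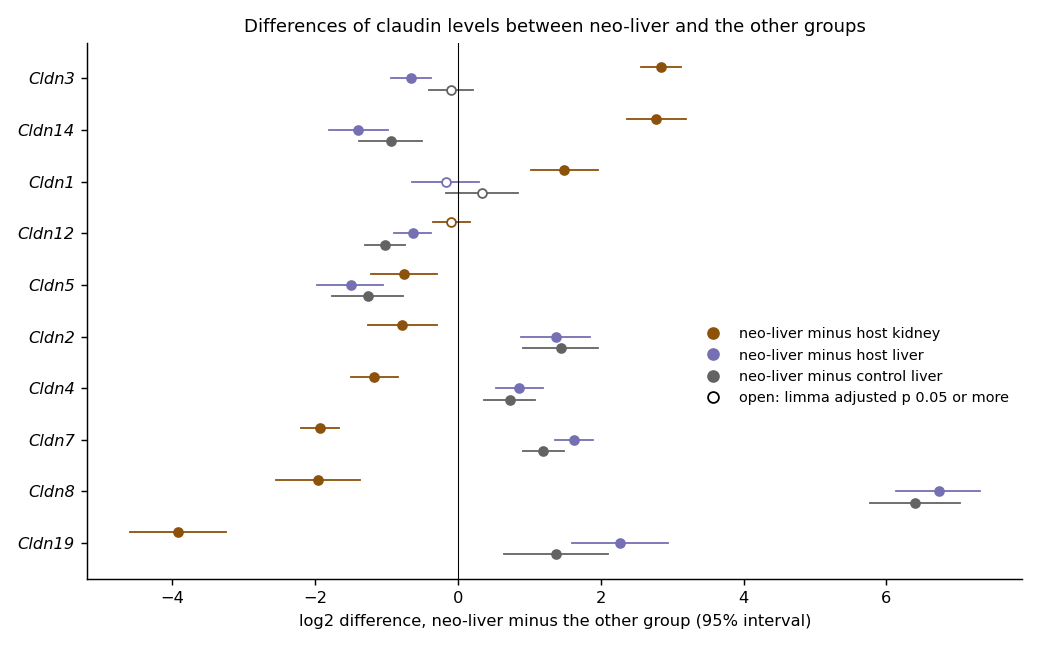
Difference of each claudin between neo-liver and host kidney, host liver or control liver, on the log2 scale with 95% intervals. Open points have a limma adjusted p of 0.05 or more. Cldn3, Cldn14 and Cldn1 lie right of 0 against host kidney, and Cldn2, Cldn4, Cldn7, Cldn8 and Cldn19 lie left of 0 against host kidney and right of 0 against both livers. The fitted values of Cldn8 and Cldn19 against both livers, and of Cldn4 against host liver, set neo-liver against groups not above background.

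The 5 claudins that were higher in neo-liver than in both livers were all higher in host kidney than in liver, and their signals were set beside the kidney share. As a percentage of the host kidney mean, Cldn8 signal above control liver was 17.5%, 38.3%, 22.9% and 27.7% on neo-liver arrays 1 to 4. Cldn7 reached 12.1%, 22%, 13.6% and 20% and Cldn19 3.83%, 5.37%, 0.938% and 7.69%. Outside the 10, Cldn10, a proximal tubule and thick limb claudin, gave 14%, 24.8%, 15% and 22%, and Cldn16 8.39%, 16.3%, 6.52% and 17.9%. Markers of the proximal tubule gave 23.6%, 57.6%, 22.2% and 39.6%, of the loop and distal tubule 19.8%, 44.7%, 17.8% and 26.7%, and of the collecting duct 11%, 37.6%, 17.4% and 18.3%. Beside the collecting duct median, Cldn8 was higher on every neo-liver array, Cldn7 only on arrays 1 and 4, and Cldn19 on none. Beside the median of all 44 markers, Cldn7 and Cldn19 were lower on every neo-liver array, and Cldn8 was lower on all but array 3. Within the loop and distal list, Slc12a1, the salt transporter of the thick ascending limb, and Umod, uromodulin of the same segment, averaged 3.69% and 10.5%. Slc12a3, the transporter of the distal convoluted tubule, averaged 50%. Their part in the claudin levels was not tested.

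**Figure D4:**
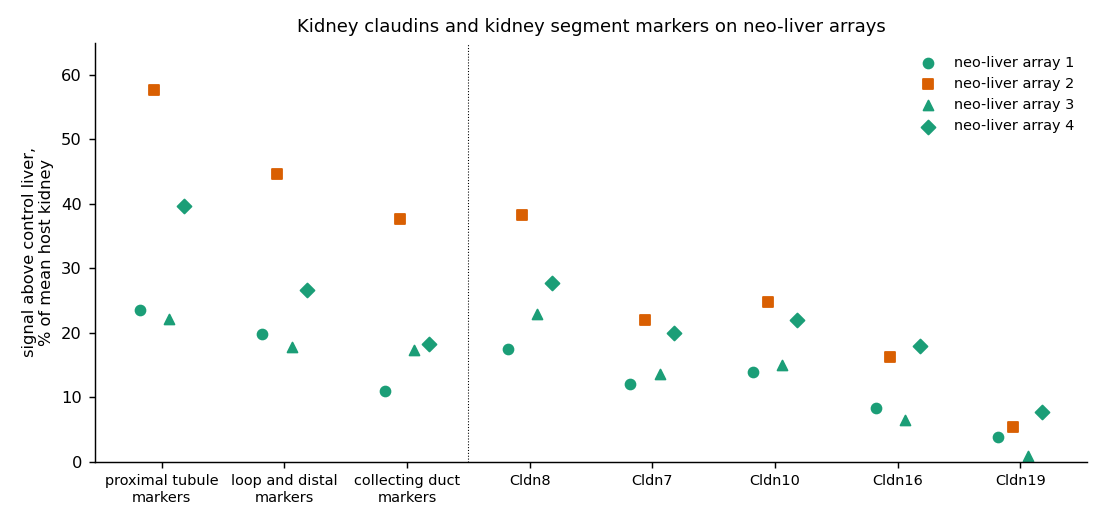
Signal above the control liver mean on each of the 4 neo-liver arrays, as a percentage of the mean host kidney signal, for the median of 3 kidney marker lists (left of the dotted line) and for 5 claudins whose host kidney signal was at least 8-fold that of control liver (right). Each symbol is 1 array. Array 2 is highest for the 3 marker lists, Cldn8, Cldn7 and Cldn10, and Cldn19 lies lowest, between 0.938% and 7.69%.

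The neo-liver arrays themselves differed in their kidney share, in the order 2, 4, 3 and 1 from high to low. Cldn2, Cldn7 and Cldn8 took the same order over the 4 arrays, as did 14 of the 44 kidney markers and 7.82% of all genes tested. Cldn3 and Cldn14 took the opposite order, as did 4 of 11 hepatocyte markers, 0 of 44 kidney markers and 4.27% of all genes. The order is that of the median of these same 44 markers, so their counts in either order are no independent reference. Cldn1, Cldn4, Cldn5, Cldn12 and Cldn19 took neither order. The spread of Cldn7 over the neo-liver arrays was 0.23 (SD, n = 4) and that of Cldn8 0.47 (SD, n = 4), against 0.14 and 0.08 over the host kidney arrays. Cldn4, Cldn12 and Cldn14 spread less in neo-liver (0.10, 0.15 and 0.28) than in host kidney (0.39, 0.19 and 0.42), and the remaining members more.

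Cldn4 and Cldn7 are also made by bile duct cells, whose markers are largely shared with kidney tubule. Of 13 bile duct markers, 6 were higher and 2 lower in neo-liver than in control liver, and 1 was higher and 9 were lower than in host kidney. The shares of all genes were 20.4% higher and 29.8% lower against control liver, and 23.2% and 29.5% against host kidney. Their summed signal was 13.4 to 26.9 in neo-liver, 5.07 to 6.72 in control liver, 3.47 to 7.46 in host liver and 54.4 to 69.9 in host kidney. Krt7, a keratin of ducts, was at least 23.3-fold above control liver and lower than in host kidney by -2.11. Epcam, an epithelial adhesion protein, was at least 8.13-fold above and lower by -3.05. Epcam was above background on no array of either liver, so its call against control liver gives no support to the counts. Krt23 (-2.61) and Sctr, the secretin receptor (-0.76), were lower than in control liver. Against host kidney, Cd24a was lower by -2.65, and Sox9, a factor of ducts and progenitors, was higher by 1.53. Krt19, the keratin most used to mark bile ducts, differed by 0.04 (limma adjusted p = 0.939) from control liver and by 0.00 (limma adjusted p = 0.996) from host kidney. The part of bile duct cells in the claudin levels was not tested.

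Between the 2 host organs, all 10 claudins were called, where 70.8% of all genes were. Cldn8 and Cldn19 had to differ from liver, since they were kept for testing through host kidney and neo-liver alone. Cldn1, Cldn3, Cldn5, Cldn12 and Cldn14 (5 of 10) were higher in host liver, beside 39.6% of all genes, from 0.54 for Cldn12 to 4.17 for Cldn14. Cldn2, Cldn4, Cldn7, Cldn8 and Cldn19 (5 of 10) were lower there, beside 31.2% of all genes, from -2.15 for Cldn2 to -3.56 for Cldn7 where both organs gave signal, and at least 3.59-fold for Cldn4, 30.2-fold for Cldn19 and 102-fold for Cldn8. With quantile normalization the Cldn12 difference was 0.05 (adjusted p = 0.712). Host kidney against control liver gave the same split in 9 of 10, where 66.5% of genes were called. In host kidney 5 were higher beside 30.2% of all genes and 4 lower beside 36.3%, and Cldn5 differed by -0.50 ± 0.23 (limma adjusted p = 0.0702).

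Between host liver and control liver 3 of the 10 were called, where 24.7% of all genes were. Cldn3 was higher in host liver, by 1.47-fold (0.56 ± 0.14, limma adjusted p = 0.0127), where 13.4% of all genes were higher. Cldn7 (-0.43 ± 0.13, limma adjusted p = 0.0332) and Cldn12 (-0.38 ± 0.13, limma adjusted p = 0.0453) were lower, where 11.2% of all genes were lower. Their host liver arrays lay below every control liver array, but the Cldn7 call held in 18 of 26 alternatives and the Cldn12 call in 10 of 26. With the replicate number as a block the Cldn12 adjusted p was 0.0515, though control livers share only numbers with hosts. Leaving out control liver 1, control liver 2, host liver 3 or host liver 4 left 1 claudin called, and leaving out control liver 3 left 0, with Cldn3 at an adjusted p of 0.0619. Median centring raised the part of all calls that were higher in host liver from 54.5% to 73.2% and the median over all genes from 0.08 to 0.22, and it called Cldn14 higher (0.59, adjusted p = 0.048). The other 7 were not called, with differences from -0.89 for Cldn19, where neither group was above background, to 0.51 ± 0.24 for Cldn1.

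The other claudins on the array were, where called, higher in neo-liver than in control liver and lower than in host kidney. Of 13, 7 passed the filter, 4 of them higher and 0 lower in neo-liver than in control liver, and 0 higher and 5 lower than in host kidney. Beside these stood 20.4% and 29.8% of all genes against control liver, and 23.2% and 29.5% against host kidney. Cldn10 and Cldn16 passed through host kidney and neo-liver alone, so these had to differ from the livers. Cldn22 passed through host kidney alone. Cldn10 was at least 109-fold above control liver and lower than in host kidney by -2.43, Cldn16 at least 3.78-fold above and lower by -3.06. Cldn15, a pore-forming claudin best known from intestine, differed by 1.50 and -1.32, and Cldn9, known from the inner ear, by 0.50 and -1.31. Cldn22 was lower than in host kidney and not well above background in neo-liver or either liver. Cldn17 and Cldn23 were not called in either comparison. Cldn6, Cldn11, Cldn13, Cldn18, Cldn20 and Cldn24 were not above background on every array of any group. Cldn16 lies next to Cldn1 in the RefSeq table, and this pair too ran opposite ways, with Cldn1 higher and Cldn16 lower in neo-liver than in host kidney.

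Calls in both directions were found among other membrane proteins of the tight junction. Of 12, 4 were higher and 3 lower in neo-liver than in control liver, and 4 were higher and 5 lower than in host kidney. All genes too were called in both directions, 20.4% higher and 29.8% lower than in control liver, and 23.2% and 29.5% than in host kidney. Ildr1, an angulin of contacts between 3 cells, was at least 6.17-fold above control liver and lower than in host kidney by -2.66. Ildr1 was above background on no array of either liver, so its call against control liver gives no support to the counts. Jam3, a junctional adhesion molecule, differed by 1.89 and -0.97, and Marveld3, a relative of occludin, by 1.03 and -2.60. Lower than in control liver were Ildr2 (-0.60) and F11r (-0.41), another junctional adhesion molecule. Higher than in host kidney were Lsr (2.25), the angulin of hepatocytes, and Cxadr (1.50), the coxsackievirus and adenovirus receptor. Occludin itself (Ocln) differed by -0.11 (limma adjusted p = 0.701) from control liver and by -0.89 from host kidney.

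In the list of 26 scaffold and polarity proteins, neo-liver had 9 higher and 2 lower than control liver, and 7 were higher and 9 lower than in host kidney. For all genes the shares were 20.4% higher and 29.8% lower, and 23.2% and 29.5%, in the same comparisons. Arhgef2, an exchange factor held at junctions, was higher than in control liver by 2.42, Pard6b, a polarity protein, by 1.33 and Micall2, which returns junction proteins to the membrane, by 1.25. Sympk (-0.52) and Pard3 (-0.49), a partner of Pard6 proteins, were lower. Pard6b was lower than in host kidney by -1.51, Patj, another polarity scaffold, by -1.47 and Prkcz, an atypical protein kinase C, by -1.07. Micall2 (1.27) and Mpdz, a scaffold of many PDZ domains (0.88), were higher than in host kidney. Tjp1, the scaffold to which most claudins bind, differed by 0.03 (limma adjusted p = 0.893) from control liver and by 0.18 (limma adjusted p = 0.275) from host kidney.

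In the adherens junction list of 11, 2 were higher and 1 lower in neo-liver than in control liver, and 2 were higher and 6 lower than in host kidney. Here and for the regulators below, the shares of all genes were 20.4% higher and 29.8% lower against control liver. Against host kidney they were 23.2% and 29.5%. Cdh16, the kidney cadherin, was at least 1180-fold above control liver and lower than in host kidney by -1.64. Cdh1, epithelial cadherin, differed by 1.47 and -1.31. Cdh2, neural cadherin and an abundant cadherin of hepatocytes, was higher than in host kidney by 4.16 and lower than in control liver by -0.47. Nectin2 (0.90) and Nectin3 (-0.47), adhesion proteins of the same junction, also differed from host kidney. Of 13 transcription factors that regulate epithelial state, 6 were higher and 1 lower in neo-liver than in control liver, and 4 were higher and 5 lower than in host kidney. Elf3 and Ehf, epithelial ETS factors, were at least 8.60-fold and 4.29-fold above control liver, where neither was well above background, and Ovol1 was at least 2.18-fold above. Ehf, Ovol1 and Grhl2 were above background on no array of either liver, so they passed the filter only through host kidney or neo-liver. Their calls against control liver give no support to the counts. Lower than in host kidney were Grhl2 (-2.51), a grainyhead-like factor known to act on Cldn4, Ehf (-2.40) and Ovol1 (-2.31). Grhl1 (1.50) and Snai2 (1.43), a Snail factor, were higher than in host kidney, and Ovol2 (-0.40) was lower than in control liver.

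**Figure D5:**
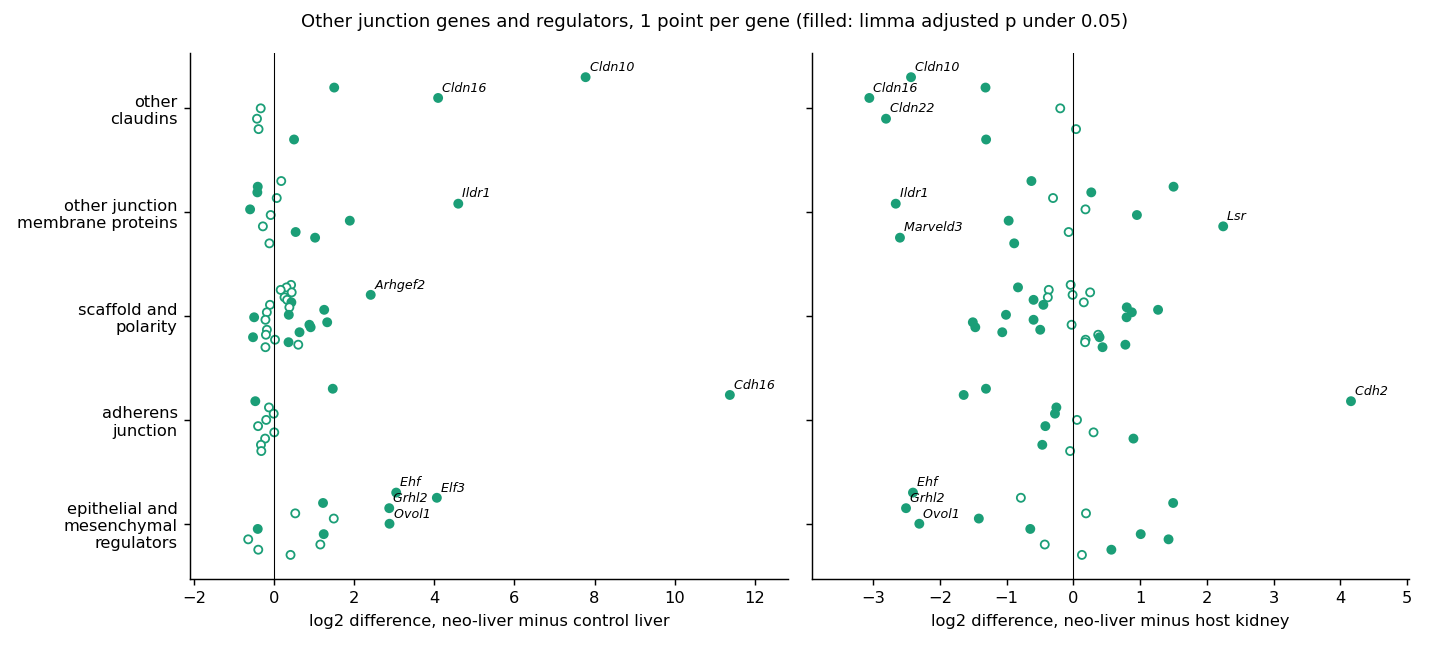
Difference of other junction genes and their regulators between neo-liver and control liver (left) and between neo-liver and host kidney (right), on the log2 scale, with 1 point per gene in 5 groups. Filled points have a limma adjusted p under 0.05. Cdh16, Cldn10 and Ildr1 lie far right of 0 on the left, as fitted values against a group not above background, and left of 0 on the right.

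Over the 15 arrays, each claudin was set beside all other genes by Pearson correlation of the log2 levels, as a description over 4 groups whose arrays share tissue. Cldn3 ran closest to Fga (r = 0.996), Fetub and Fgb, all plasma proteins made by hepatocytes, and Cldn14 to Proc (r = 0.997), Stap2 and Rab32. Cldn1 ran closest to Shfl (r = 0.969), Mmp14 and Galnt6, and Cldn12 to Echs1 (r = 0.974), Mrps10 and Rnf5. For Cldn2 these were Gcnt1 (r = 0.985), Car2 and Mapk10, for Cldn4 Dgkh (r = 0.986), Fbxo27 and Slc5a10, and for Cldn7 Slc2a13 (r = 0.995), Kcnq1 and Mtcl1. Cldn8 ran closest to Hoxa7 (r = 0.997), Slc1a1 and Pdzd3, and Cldn19 to Slc22a13 (r = 0.989), Stx7 and Serpina1f. The lowest best match among the 10 was that of Cldn5, with S100a13 (r = 0.926), Ndufb7 and Pop5. Between members, r ranged from -0.98 for Cldn14 with Cldn4 and with Cldn7 to 0.98 for Cldn7 with Cldn19, and Cldn5 with Cldn1 gave 0.07.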

How the data were processed

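RNA of 15 samples was hybridised to one-colour Agilent arrays labelled with Cy3. Per the file headers and the submitters' processing notes, spots were read with Agilent Feature Extraction 10.10.1.1, and the intensity used here is its processed signal, from which the software had subtracted background, with no scaling across arrays. For 99.8% of probes, the deposited log2 values agreed to 0.01 with the log2 signal after a constant shift of each array, close to its 75th percentile. The text of the authors' own normalization was not used here.

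Control spots and outlier spots were left out, 59305 spots were averaged to 55681 probes, and the 75th percentile was subtracted. Probes well above background on every array of at least 1 group were kept (34982, of which 20386 had a symbol), and the brightest per symbol gave 15617 genes. All 10 claudins passed, Cldn8 and Cldn19 through host kidney and neo-liver alone, so that these had to differ from the livers. The 4 groups were compared in a single limma fit (R 4.3.3, limma 3.58.1, statmod 1.5.0) with two-sided Benjamini-Hochberg adjusted p, and the code was tested on simulated data. The number of arrays limits precision. The members, lists and the rule for naming genes (up to 3 called genes of a list in its main direction and 2 in the other, and the 3 closest correlates) were chosen with earlier results of these data known. Genes named beside the rule for their biology, such as Ocln, Tjp1, Krt19 and Glul, and the endothelial and segment markers, were picked after values were seen. A few genes that the rule would name are not reported here.

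The kidney share is the median over 44 kidney markers whose host kidney signal was at least 8-fold that of control liver. Its alternative takes that share of the mean host kidney signal off each neo-liver array, sets what falls lower to the lowest signal well above background there, and does not rescale the rest, so the median over all genes fell from -0.09, -0.16 and -0.21 to -0.58, -0.72 and -0.79 against host kidney, control liver and host liver. No direction of a claudin is read from it. Same-numbered host samples deviated together (r across genes 0.179 to 0.577, each best with its own number), so numbers were taken to mark mice. The pairing comes from the labels' numbers, and the labels do not say that these mark mice. The main fit left the pairing out, so its standard errors and p-values treat the samples as independent. Among the fits, only the replicate block settings used the numbers. Control livers (-0.125 to 0.065) share numbers only, yet host kidney 1 and 3 were also best with the control liver of their number (0.036 and 0.065). Normexp used median spot and background signals with an offset of 50. The random replicate block was added after seeing the data.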

Additional observations from a re-analysis of the deposited data

Results flagged for a closer look

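In 30 groups of 4 arrays (10 claudins in host kidney, host liver and neo-liver), a single array stood apart from the other 3 in 3 groups, and chance alone sets 1 in 20 such groups apart. Cldn1 read 0.69 on host liver array 4, against -0.28 to -0.14 on the other host liver arrays. Cldn14 read 1.77 on host liver array 1, against 1.44 to 1.46 on the others. Cldn8 read 2.82 on host kidney array 4, against 2.65 to 2.67 on the others. The Cldn8 gap is small beside the difference between kidney and neo-liver.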

How the results depend on the processing

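Over all alternatives, 1531 of the single-claudin values kept their side of the threshold, 34 lost the call and 7 gained one. A further 5, called in the main fit, changed sign. Differences that were not called could change sign too, and these are not among the 5. For example, Cldn3 between neo-liver and control liver ranged from -0.19 to 0.31. All 5 changes of sign among called differences came with the kidney share subtracted. They were Cldn19 -0.53, Cldn4 -0.52 and Cldn7 -3.16 against control liver, and Cldn4 -0.39 and Cldn7 -2.73 against host liver. No direction is read from them, since Cldn19 was then at the detection floor on 4 of 4 neo-liver arrays and Cldn4 and Cldn7 on 2 of 4, and the median over all genes moved to -0.72 and -0.79. Cldn8 was at the floor on 3 of 4. The setting left 5 claudins called against control liver in place of 8, and its new call of Cldn12 below host kidney (-0.61) lay near the median over all genes there (-0.58). Between host liver and control liver, dropping the filter on dim probes left 1 claudin called in place of 3, and fitting the 2 groups alone called 2520 genes in place of 3853. Leaving out 1 array gave 0 to 3 claudins and 2275 to 4162 genes there, the lowest counts without a control liver array (2275, 2303 and 2433). In the other comparisons the claudin count stayed the same without any single array, and genes called ranged from 6404 to 8522 for neo-liver and from 9461 to 11256 for host kidney against the livers. With the replicate number as a block, the Cldn12 call between host liver and control liver was lost (-0.37, adjusted p = 0.0515) and Cldn19, below background in both, was called (-1.04, adjusted p = 0.0179). Control livers share only numbers with hosts, so the block joins no samples of 1 mouse in this comparison. The block changed no other claudin call, and genes called between host liver and control liver were 4498. As a random effect it gave Cldn12 an adjusted p of 0.0541. The cause was not tested. Signal over background limits Cldn4, Cldn8 and Cldn19 in liver.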

Other observations

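Besides tubule genes, the neo-liver arrays carried genes of the glomerulus. Of 9 podocyte markers, 8 were higher and 1 lower in neo-liver than in control liver, and 1 was higher and 6 were lower than in host kidney. Of all genes, 20.4% were higher and 29.8% lower than in control liver, and 23.2% and 29.5% than in host kidney. All 9 were above background on every neo-liver array and 5 on every control liver array. Lower than in host kidney were Npnt (-2.27) and Tdrd5 (-1.78), and Tdrd5 was at least 4.77-fold above control liver. Npnt and Tdrd5 were above background on no array of either liver, so they passed the filter only through host kidney or neo-liver. Their calls against control liver give no support to the counts. Wt1, a transcription factor of podocytes that mesothelium and liver stellate cells also make, was higher than in control liver by 5.28 and differed from host kidney by -0.77 (limma adjusted p = 0.271). Of 7 mesothelium markers 3 were tested. Msln, mesothelin, was higher in neo-liver than in control liver by 1.64 (limma adjusted p = 0.0474) and higher than in host kidney by 2.04, where Gpm6a was lower by -3.13.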
